A study of Mus musculus with 12 samples.

Results

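The 10 genes described here encode the liver enzymes that turn cholesterol into bile acids and the nuclear receptors that set the level of those enzymes. They were taken by name: 5 enzymes of the ring and side-chain steps shared by or specific to the 2 routes (Cyp7a1, Cyp8b1, Cyp27a1, Cyp7b1 and Hsd3b7), the reductase Akr1d1, the conjugating enzyme Baat, and the regulators Nr0b2, Nr1h4 and Nr5a2. All 10 were found once among the 48526 genes of the deposited CPM table, and all 10 were among the 11968 genes of the count table on which every test was run.

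Livers came from mice of the inbred strain C57BL/6J that ate chow, or the same diet type with simvastatin added, for 4 weeks. Simvastatin blocks HMG-CoA reductase, the enzyme that limits cholesterol synthesis. The 4 groups were female chow, female statin, male chow and male statin, with 3 livers in each and 12 different mice in all. No engineered allele or other treatment is given for these mice, and they were 8 to 10 weeks old when the diets were split. The simvastatin dose was 0.1 g per kg, which the sample labels refer to body weight and the methods to food weight. Poly(A) RNA was sequenced and the reads were counted per gene on GRCm38. Bile acids themselves are not analysed here.

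Bile acids are made from cholesterol in hepatocytes by a classical route, which Cyp7a1 opens and limits, and by an alternative route, which Cyp27a1 opens and Cyp7b1 continues. Bile acids that return to the liver activate the receptor FXR (gene Nr1h4), which induces the small heterodimer partner SHP (gene Nr0b2), and SHP represses Cyp7a1 and Cyp8b1 through the receptors LRH-1 (gene Nr5a2) and HNF4. In rodents oxysterols can also raise Cyp7a1 through the receptor LXR, and several genes of this pathway are known to differ between male and female mouse liver.

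Total counts per liver were between 46066381 and 60419223, and the limit set by 3 counts was 0.0497 to 0.0651 CPM (counting error only). Summed levels of 6 hepatocyte markers lay between 74832 and 156054 CPM, and those of 6 cholangiocyte markers between 19.0 and 51.7 CPM. Between statin and chow males 0 of 11968 genes passed an adjusted p under 0.05 by edgeR (234 at an unadjusted p under 0.05, and 4 adjusted by DESeq2). Between statin and chow females 12 passed (1256 at an unadjusted p under 0.05, and 270 adjusted by DESeq2). Among 10 textbook targets of SREBP2, the transcription factor activated when sterol is low, 0 passed the test in either sex (0 of 10 also at an unadjusted p under 0.05). Their median log2 fold change was -0.36 in females and 0.15 in males. In bulk RNA a lower level in each hepatocyte and a smaller share of hepatocytes cannot be told apart.

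The genes lie on 7 chromosomes in GRCm38, and positions here are those of the GENCODE vM21 annotation. Cyp7a1 spans chr4:6265612-6275633 on the minus strand with 4174 exonic bases. Cyp8b1 is a single-exon gene of 1950 bases at chr9:121914356-121916305, also on the minus strand, and Nr0b2 lies at chr4:133553376-133556536 on the plus strand with 1132 exonic bases. Cyp27a1 (chr1:74713574-74737892, plus strand), Cyp7b1 (chr3:18071950-18243338, minus strand), Akr1d1 (chr6:37530173-37568815, plus strand), Baat (chr4:49489422-49506557, minus strand), Nr1h4 (chr10:89454234-89533585, minus strand) and Nr5a2 (chr1:136842571-136960448, minus strand) shared no exonic base with another annotated gene. Hsd3b7 (chr7:127800604-127803802, plus strand, 2769 exonic bases) shared 1717 exonic bases with Gm49388 on its own strand and 1729 with 9430064I24Rik on the other strand, neither of which was in the count table. The handling of reads in shared bases is not given in the sources used here, so the Hsd3b7 counts are uncertain.

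Promoters of Cyp8b1 and Nr0b2 are shown because both genes are textbook targets of LRH-1 and because 1 of them encodes the repressor and the other a repressed enzyme. RefSeq's table for GRCm38.p6 held the 250 bases before the start of 7 of the 10 genes, and those of Cyp7a1, Cyp7b1 and Baat are named only. Capitals mark matches to CAAGGNCA, the letters used here for LRH-1, and to CAAAGTNCA, those used for HNF4.
Cyp8b1, chr9:121916306-121916555, minus strand: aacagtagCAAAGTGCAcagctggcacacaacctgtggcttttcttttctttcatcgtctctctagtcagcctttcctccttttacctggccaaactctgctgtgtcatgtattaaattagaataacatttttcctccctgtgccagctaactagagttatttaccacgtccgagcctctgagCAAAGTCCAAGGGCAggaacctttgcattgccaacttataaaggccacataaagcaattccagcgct
Nr0b2, chr4:133553126-133553375, plus strand: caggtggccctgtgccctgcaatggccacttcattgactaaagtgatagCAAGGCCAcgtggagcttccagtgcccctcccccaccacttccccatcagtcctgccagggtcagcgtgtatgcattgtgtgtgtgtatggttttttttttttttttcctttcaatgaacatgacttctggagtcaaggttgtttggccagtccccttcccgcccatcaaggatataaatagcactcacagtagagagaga
The LRH-1 letters stood in both promoters, at bases -60 to -53 before the start of Cyp8b1 and at -201 to -194 before that of Nr0b2. On either strand they occurred in 5.53% of 32851 promoters of the same length, and in no other of the 7 member genes with a promoter. The HNF4 letters stood at -242 to -234 and at -67 to -59 of Cyp8b1, the second match overlapping the LRH-1 match, and occurred in 1.19% of promoters. The half-site AGGTCA facing its reverse complement with 1 base between them, used for FXR, and the same half-site repeated with 4 bases between, used for LXR, were in 0.00609% and 0.0152% of promoters and in none of the members' windows. A match is a description of these letters and no measure of binding.

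Levels are given as CPM (counts relative to a liver's own total) after TMM scaling, which sets libraries level by the bulk of their genes. Per kilobase of exon, Cyp8b1 was the highest of the 10 genes in 3 of the 4 groups, from 147.5 ± 41.6 CPM per kb in female chow to 211.9 ± 29.1 in male chow (SD, n = 3). In male statin livers Cyp27a1 (188.8 ± 41.3 CPM per kb) was above Cyp8b1 (182.8 ± 24.4). The livers of the highest gene overlapped those of the next in every group. Hsd3b7 was the lowest in every group, between 0.682 and 1.19 CPM per kb on average. Its lowest liver, at 0.869 CPM without the length correction, was still above the 3-count limit. Cyp7a1 was the 7th of the 10 genes in female chow (13.3 ± 2.47 CPM per kb), where its livers overlapped those of Nr5a2 above it and Nr0b2 below it. In female statin livers it was the 5th (73.0 ± 65.3), overlapping Baat above it and Nr1h4 below it. Cyp7b1 was the 9th gene in female chow at 7.29 ± 1.39 CPM per kb and the 6th in male chow at 51.1 ± 7.35.

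**Figure D1:**
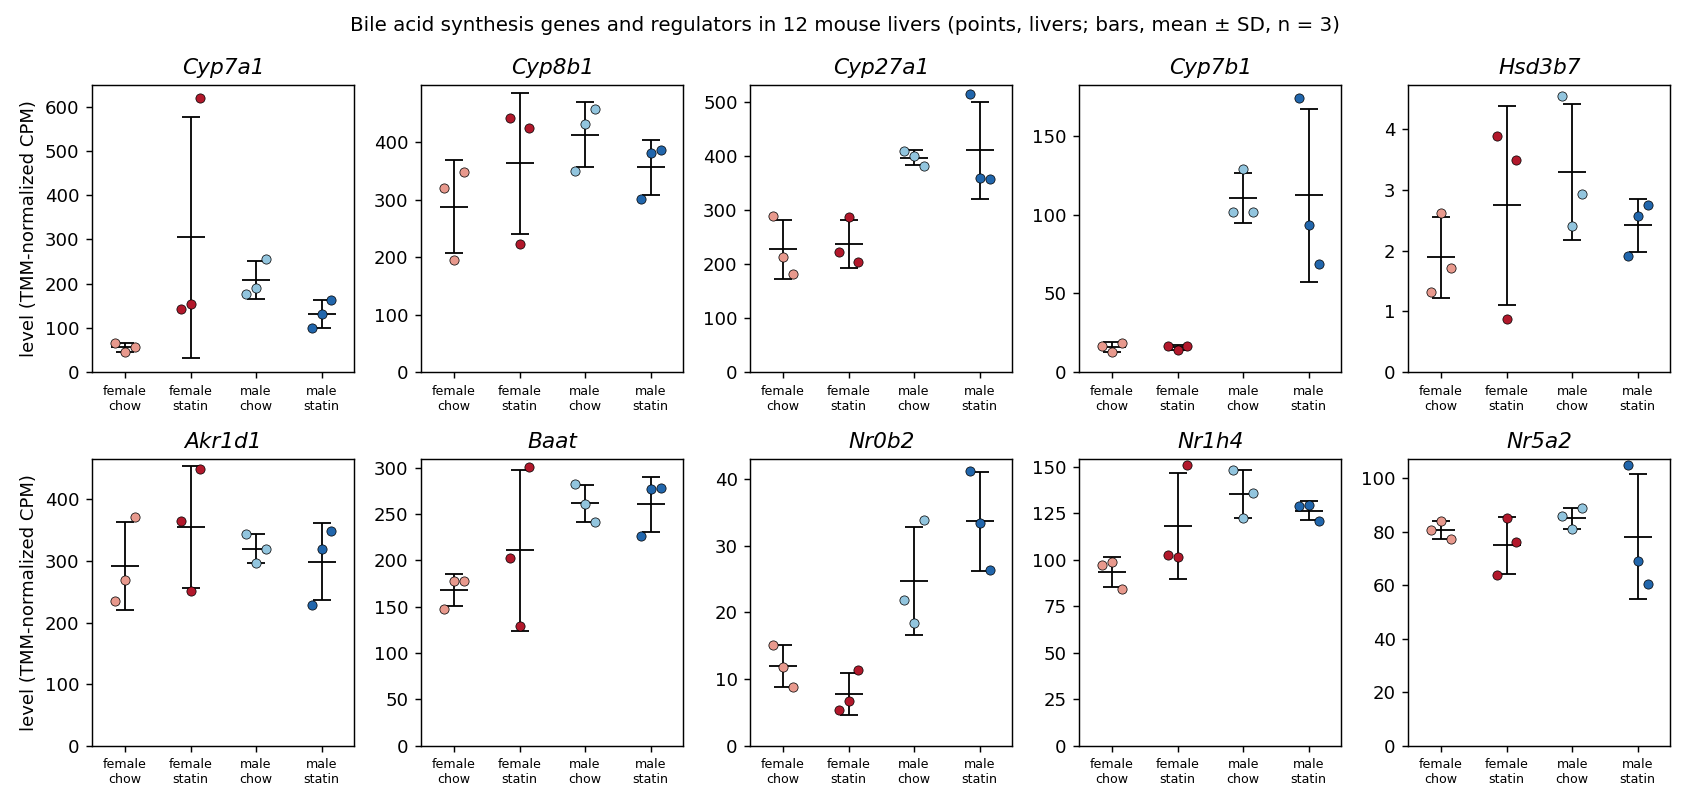
Level of each of the 10 genes (TMM-normalized CPM, linear axes from 0) in the 3 livers of each group, with bars for the mean ± SD (n = 3). Cyp7a1 lay at 44.5 to 64.9 CPM in female chow livers and at 142.2, 152.8 and 619.6 CPM in female statin livers, and Cyp7b1 lay at 18.5 CPM or below in every female and at 68.6 CPM or above in every male.

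The first comparison asked how the pathway differed with simvastatin in females. Cyp7a1, the rate-limiting enzyme of the classical route, was higher in every statin female than in every chow female, but the difference missed the threshold of an adjusted p under 0.05. Of the 10 genes 0 passed (edgeR's quasi-likelihood test, two-sided, Benjamini-Hochberg over 11968 genes), against 0.100% of all genes tested. At an unadjusted p under 0.05 only Cyp7a1 passed, 1 of 10 against 10.5% of all genes, a share near the background. The median log2 fold change of the 10 genes was 0.30, beside 0.01 over all genes tested, and 7 of the 10 were above 0 against 52.8% of all genes. That median moved with single livers: it was 0.12, with 6 genes above 0, without female statin replicate 3, 0.18 without female statin replicate 1 or female chow replicate 2, and 0.46 without female statin replicate 2.

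Cyp7a1 measured 64.9, 44.5 and 57.7 CPM in the female chow livers. In the female statin livers it measured 142.2, 152.8 and 619.6 CPM. The groups did not overlap, and female statin replicate 3 stood far above the other two. The means of 55.7 ± 10.3 and 304.9 ± 272.6 CPM (SD, n = 3) differed 5.48-fold, a log2 fold change of 2.45 ± 0.48 (SE) with adjusted p = 0.0951 by edgeR's quasi-likelihood test. Without female statin replicate 3 the log2 fold change was 1.42 (adjusted p = 0.137), and without female statin replicate 1 or 2 it was 2.79 (adjusted p = 0.0318) or 2.77 (adjusted p = 0.0304). DESeq2 gave 2.44 with an adjusted p of 0.00264, and edgeR without the filter on low counts 2.44 with 6.85e-05, so the call turned on the test and the filter. Over the 10 alternatives that kept every liver of the comparison the adjusted p ranged from 6.85e-05 to 0.379 and the log2 fold change from 2.09 to 2.45.

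Female statin replicate 3 was also the highest of its group for Akr1d1 (449.4 CPM), Baat (301.0 CPM), Nr0b2 (11.3 CPM), Nr1h4 (151.0 CPM) and, by little, Cyp7b1 (16.7 CPM), and the lowest for Cyp27a1 (203.0 CPM). Its share of counts in genes of at least 4000 exonic bases was 33.3%, the lowest of the 12 livers, while the other statin females were at 33.6% and 38.5% and the chow females at 37.6% or more. Cyp7a1, with 4174 exonic bases, is 1 of those long genes. Summed hepatocyte markers were between 113223 and 156054 CPM in statin females and between 95946 and 130144 CPM in chow females. Most of that sum was Alb, at 90758 ± 16823 CPM in chow females and 117637 ± 18926 CPM in statin females. Tat was lower on statin without overlap, at 866.9 to 1816.5 CPM on chow and 629.0 to 821.4 CPM on statin. Each of the other hepatocyte markers overlapped. Summed levels of 6 lymphocyte markers did not overlap, at 15.5 to 19.0 CPM on chow and 22.2 to 29.5 CPM on statin. The part of these measures in the Cyp7a1 difference was not tested.

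Cyp8b1, the 12-alpha-hydroxylase that directs synthesis to cholic acid, measured 320.2, 195.4 and 347.5 CPM on chow and 442.4, 222.4 and 424.4 CPM on statin in females. The groups overlapped through the low statin liver, and the log2 fold change was 0.34 ± 0.27 (SE, adjusted p = 0.785). The genes of the alternative route lay still closer together. Cyp27a1, the mitochondrial sterol 27-hydroxylase, averaged 227.2 ± 54.6 CPM on chow and 237.4 ± 44.2 CPM on statin. Cyp7b1, the oxysterol 7-alpha-hydroxylase, averaged 15.8 ± 3.01 and 15.6 ± 1.44 CPM, a log2 fold change of -0.01 ± 0.28. Akr1d1, which reduces the steroid ring, Baat, which joins bile acids to taurine or glycine, and Hsd3b7, which acts on the ring in both routes, had log2 fold changes of 0.28, 0.33 and 0.54 with adjusted p-values of 0.803, 0.753 and 0.816, and their livers overlapped.

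The regulators did not pass the test in females either. Nr1h4, the bile acid receptor FXR, measured 97.2, 98.6 and 84.2 CPM on chow and 102.4, 101.3 and 151.0 CPM on statin. The statin livers were all above the chow livers, 2 of them by little, and the log2 fold change was 0.34 ± 0.16 (adjusted p = 0.484). Without female statin replicate 3 it was 0.14 (adjusted p = 0.995). Nr0b2, the repressor SHP, went the other way in its means. It measured 15.1, 11.8 and 8.88 CPM on chow and 5.39, 6.65 and 11.3 CPM on statin, with the highest statin liver inside the chow range. Its log2 fold change was -0.62 ± 0.31 (adjusted p = 0.531). Nr5a2, the receptor LRH-1 that drives bile acid genes, averaged 80.6 ± 3.44 CPM on chow and 75.0 ± 10.7 CPM on statin. Groups that did not overlap were thus seen for Cyp7a1 and Nr1h4, 2 of 10 genes, both higher, against 6.03% of all genes tested in that direction.

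In males no gene of the pathway passed the test. Of the 10 genes 0 passed the adjusted threshold by edgeR, against 0% of all genes, 0 passed it by DESeq2 or limma, and 0 had an unadjusted p under 0.05 by edgeR, against 1.96% of all genes. The median log2 fold change was -0.10, beside 0.00 over all genes, and 3 of 10 were above 0 against 51.0% of all genes. The median was -0.04 without male chow replicate 1, -0.16 without male chow replicate 2 and -0.06 without male statin replicate 3. Cyp7a1 measured 175.8, 190.3 and 256.5 CPM in male chow livers and 99.5, 130.3 and 163.7 CPM in male statin livers. All 3 statin males were below all 3 chow males, with a log2 fold change of -0.66 ± 0.46 (adjusted p = 1.0) and a ratio of 0.632. It was the only one of the 10 genes whose male groups did not overlap, against 4.30% of all genes that were lower without overlap.

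Nr0b2 in males measured 21.8, 18.4 and 33.9 CPM on chow and 41.2, 33.4 and 26.3 CPM on statin. The groups overlapped, with a log2 fold change of 0.45 ± 0.30 (adjusted p = 1.0). Cyp7b1 varied most among statin males, at 174.3, 93.6 and 68.6 CPM against 101.6, 129.1 and 101.5 CPM on chow. The first of these statin livers was also the highest of its group for Cyp27a1 (513.9 CPM), Nr0b2 (41.2 CPM) and Nr5a2 (104.8 CPM) and the lowest for Cyp7a1 (99.5 CPM), Cyp8b1 (301.6 CPM), Hsd3b7 (1.92 CPM), Akr1d1 (228.5 CPM) and Baat (226.6 CPM). Its share of counts in genes of at least 4000 exonic bases was 39.3%, against 35.2% and 34.5% in the other statin males. The log2 fold changes of Cyp8b1, Cyp27a1, Akr1d1, Baat, Nr1h4 and Nr5a2 in males lay between -0.21 and 0.05, and that of Hsd3b7 was -0.44 ± 0.45.

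**Figure D2:**
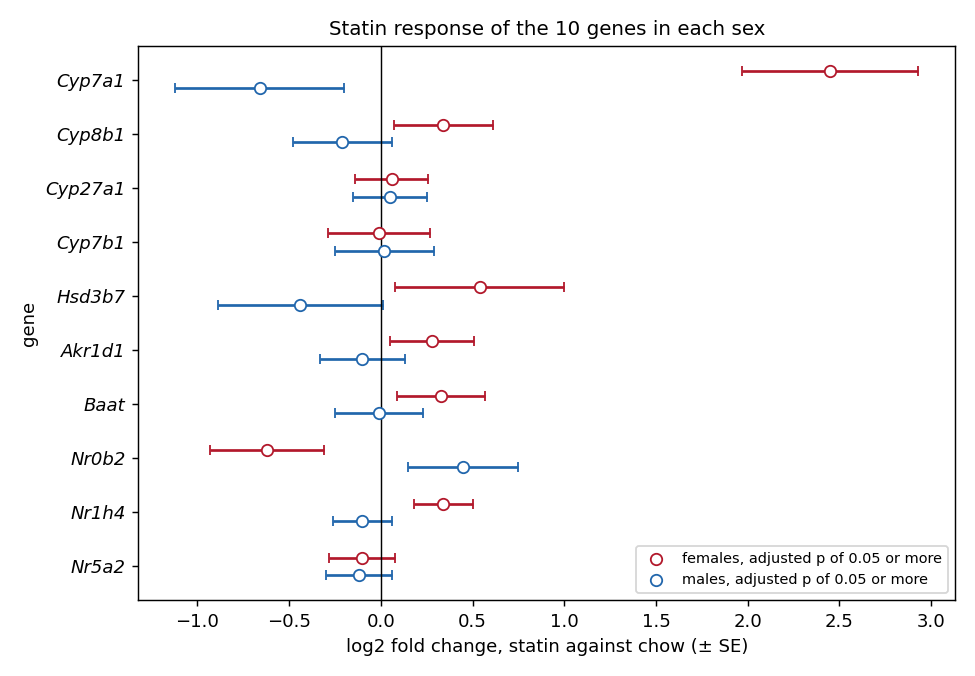
Log2 fold change of statin against chow (± SE, edgeR fit of 12 livers) for each of the 10 genes in females (red) and males (blue). All circles are open because no value passed an adjusted p of 0.05, and Cyp7a1 at 2.45 in females and -0.66 in males stands farthest apart.

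The third comparison was the difference between the sexes in the statin response, tested as an interaction. For Cyp7a1 the log2 fold change in females exceeded that in males by 3.11 ± 0.67 (SE, adjusted p = 0.24), the 25th smallest p of 11968 genes. For Nr0b2 the difference was -1.07 ± 0.43 (adjusted p = 0.531). Of the 10 genes 0 passed the adjusted threshold by edgeR, against 0% of all genes, and these 2 had an unadjusted p under 0.05, against 8.01% of all genes. By DESeq2 Cyp7a1 passed with 3.09 and an adjusted p of 0.0215, and by edgeR without the filter on low counts with 3.11 and 0.000437. Without female statin replicate 3 the difference was 2.07 (adjusted p = 0.141). The other 8 genes had interactions between -0.03 and 0.98 with adjusted p-values of at least 0.701.

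**Figure D3:**
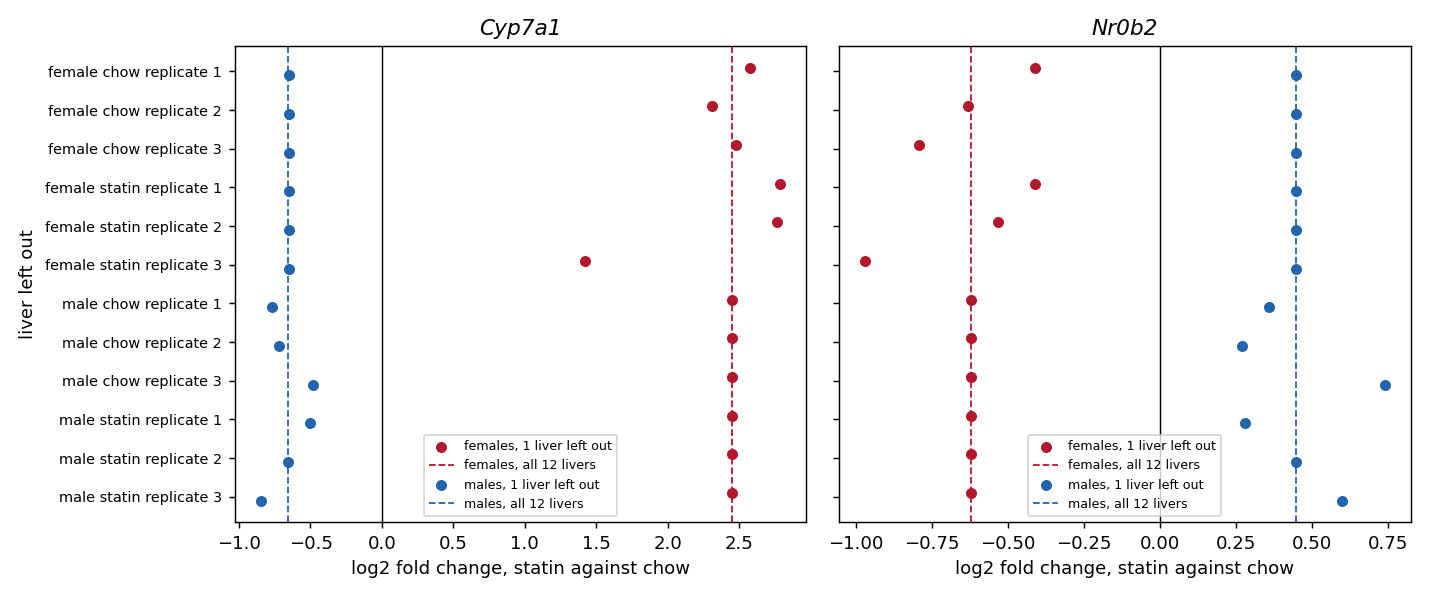
Log2 fold change of statin against chow for Cyp7a1 (left) and Nr0b2 (right) with 1 of the 12 livers left out at a time, in females (red) and males (blue), with dashed lines at the values from all livers. Cyp7a1 in females ran from 1.42 without female statin replicate 3 to 2.79, and in males from -0.85 to -0.48. Nr0b2 ran from -0.97 to -0.41 in females and from 0.27 to 0.74 in males.

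SHP is known to repress Cyp7a1 and Cyp8b1, so the levels of the 3 genes were compared liver by liver after the mean of each group was removed. Nr0b2 and Cyp7a1 gave Pearson's r = 0.56 (exact permutation p = 0.167, adjusted over 3 pairs 0.501) and Spearman's rho = 0.45 (exact permutation p = 0.273, adjusted 0.50) over 12 livers. Within the female groups r was 0.80 and within the male groups 0.00, a difference that was not tested. Without the 2 livers farthest from the median of Nr0b2, r was 0.12, so the value rested on those livers. Nr0b2 and Cyp8b1 gave r = 0.02 (exact permutation p = 0.97, adjusted 0.97) and rho = -0.10 (p = 0.811, adjusted 0.811), with r = -0.31 without those livers and values of 0.06 in the female and -0.10 in the male groups. Cyp7a1 and Cyp8b1 gave r = 0.49 (exact permutation p = 0.365, adjusted 0.547) and rho = 0.42 (p = 0.333, adjusted 0.50), with r = 0.87 without the 2 livers farthest from the median of Cyp7a1, and 0.44 in the female and 0.86 in the male groups. No pair passed.

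The clearest differences in the pathway were between the sexes. On chow 4 of the 10 genes passed the test and all 4 were lower in females (Cyp7b1, Cyp7a1, Cyp27a1 and Nr0b2), against 10.4% of all genes in either direction and 4.49% lower in females. Of the 10 log2 fold changes 0 were above 0, against 48.9% of all genes, with a median of -0.72 beside -0.01 over all genes. All 3 female livers lay below all 3 male livers for 7 of the 10 genes, against 19.1% of all genes. The female chow livers of this comparison are the same as those of the statin comparison above, so the 2 sets of values are not independent.

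Cyp7b1 measured 16.3, 12.6 and 18.5 CPM in chow females and 101.6, 129.1 and 101.5 CPM in chow males. Every male was far above every female, and the means differed 7.02-fold, with a log2 fold change of females against males of -2.81 ± 0.30 (adjusted p = 9.83e-05). It was the only one of the 4 genes that passed with any 1 of the 12 livers left out, between -2.95 and -2.67. Cyp7a1 was lower in chow females than in chow males by 3.73-fold (55.7 ± 10.3 against 207.5 ± 43.0 CPM, log2 fold change -1.90 ± 0.48, adjusted p = 0.025). Leaving out any 1 of the 6 chow livers took its adjusted p above the threshold, to between 0.0518 and 0.0995, while the log2 fold change stayed between -2.03 and -1.72.

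Cyp27a1 measured 287.8, 212.0 and 181.8 CPM in chow females and 408.2, 399.0 and 381.9 CPM in chow males, with a narrow male spread. The means differed 1.74-fold (log2 fold change -0.80 ± 0.20, adjusted p = 0.0265), and the adjusted p was between 0.0659 and 0.0965 without any 1 of 5 chow livers and 0.0163 without female chow replicate 1. Nr0b2 passed narrowly, at 11.9 ± 3.10 CPM in females and 24.7 ± 8.13 CPM in males (2.07-fold, log2 fold change -1.05 ± 0.31, adjusted p = 0.0488). It lost the call with the stricter filter on low counts (adjusted p = 0.0584), with a block for the replicate number (0.0939) and without any 1 of 7 livers, up to 0.194 without male chow replicate 3.

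Nr1h4 missed the threshold by little, at 93.3 ± 7.95 CPM in chow females and 135.5 ± 12.9 CPM in chow males (log2 fold change -0.54 ± 0.16, adjusted p = 0.0503). Its adjusted p ranged from 0.0127 to 0.0971 over 9 alternatives. Baat was at 168.1 ± 17.6 and 261.6 ± 20.1 CPM (log2 fold change -0.64 ± 0.24, adjusted p = 0.115) and Cyp8b1 at 287.7 ± 81.1 and 413.2 ± 56.8 CPM (-0.52 ± 0.27, adjusted p = 0.254). The female livers of these 3 genes all lay below the male livers. Akr1d1, Hsd3b7 and Nr5a2 overlapped between the sexes, with log2 fold changes of -0.13, -0.80 and -0.08.

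On statin 3 of the 10 genes passed, all lower in females, against 6.28% of all genes and 1.90% lower in females. Cyp7b1 was 7.17-fold lower in statin females, with 16.3, 14.0 and 16.7 CPM in statin females against 174.3, 93.6 and 68.6 CPM in statin males (log2 fold change -2.84 ± 0.30, adjusted p = 8.7e-05). Nr0b2 was 4.33-fold lower in statin females, at 5.39, 6.65 and 11.3 CPM against 41.2, 33.4 and 26.3 CPM (-2.11 ± 0.32, adjusted p = 0.0017). This call held with any 1 of the 12 livers left out, with adjusted p-values between 0.00102 and 0.00819. Cyp27a1 was 1.73-fold lower (-0.79 ± 0.20, adjusted p = 0.0387), a call lost with the stricter filter (0.0553) and without any 1 of 9 livers, up to 0.126 without male statin replicate 1. The livers of these 3 genes did not overlap between the sexes, 3 of 10 against 8.46% of all genes that were lower without overlap.

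Cyp7a1 on statin had the opposite sign to that on chow, with means of 304.9 ± 272.6 CPM in females and 131.2 ± 32.1 CPM in males. The livers overlapped and the log2 fold change of 1.22 ± 0.47 missed the threshold (adjusted p = 0.163). Without female statin replicate 3 it was 0.17 (adjusted p = 0.807). With all livers but no filter on low counts, edgeR gave 1.19 for Cyp7a1, which passed (adjusted p = 0.0223). Over 9 alternatives its adjusted p ranged from 0.0223 to 0.312. The median log2 fold change of the 10 genes was -0.08, beside -0.01 over all genes, and lay between -0.20 (without female statin replicate 3) and -0.04 (without female statin replicate 2) with 1 liver left out.

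**Figure D4:**
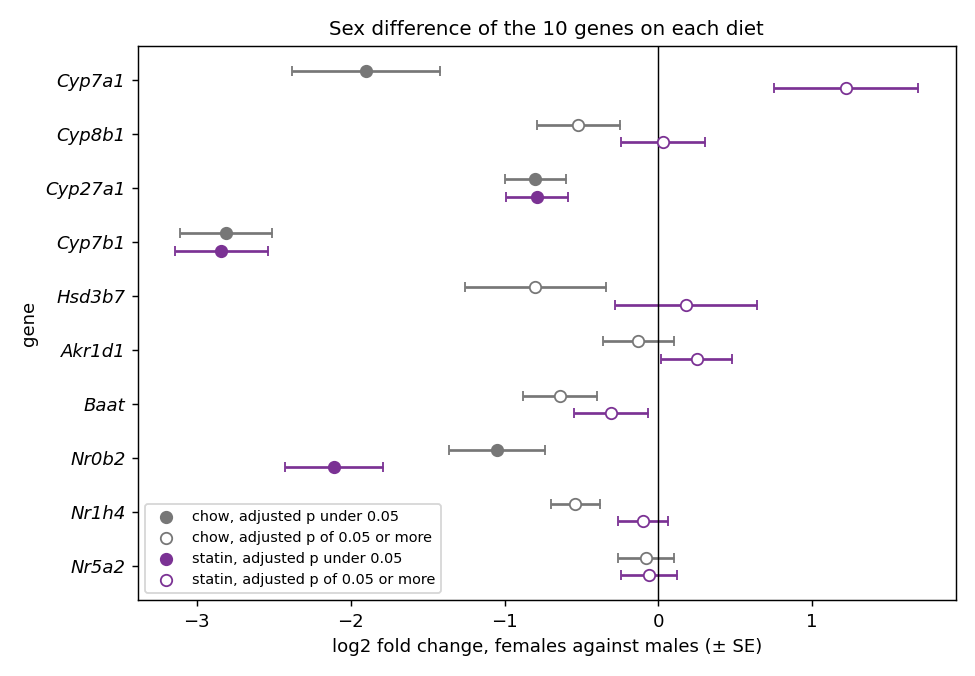
Log2 fold change of females against males (± SE, edgeR fit of 12 livers) for each of the 10 genes on chow (grey) and on statin (purple), with filled circles for an adjusted p under 0.05. Cyp7b1 stands near -2.8 on both diets, and Cyp7a1 lies at -1.90 on chow and at 1.22 on statin.

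Markers of other liver cells had different ranges in the sexes as well. Summed levels of 6 Kupffer cell markers were between 376.9 and 654.1 CPM in the 6 females and between 225.7 and 345.8 CPM in the 6 males, with no marker at 0. Those of 6 stellate cell markers were between 306.2 and 355.9 CPM in chow females and between 194.5 and 207.5 CPM in chow males, and between 224.6 and 333.6 CPM and 179.5 and 246.0 CPM on statin. Those of 6 endothelial markers were between 384.9 and 445.0 CPM in females and between 290.8 and 362.8 CPM in males. Those of 6 cholangiocyte markers were apart on chow, at 31.0 to 48.3 CPM in females and 26.2 to 30.2 CPM in males. Those of 6 hepatocyte markers were apart on statin, at 113223 to 156054 CPM in females and 78301 to 94065 CPM in males. Most of that sum was Alb, at 117637 ± 18926 CPM in statin females and 65476 ± 5347 CPM in statin males. Tat lay the other way, at 629.0 to 821.4 CPM in statin females and 1144.5 to 1327.5 CPM in statin males. Ttr, Apoa1, Apob and Serpina1a overlapped between the sexes on statin. Summed levels of 6 lymphocyte markers were also apart on statin, at 22.2 to 29.5 CPM in females and 9.54 to 14.7 CPM in males. On chow they overlapped, at 15.5 to 19.0 CPM and 10.7 to 17.1 CPM. The sum of 5 pancreas markers was lower in females on both diets, at 7.36 to 8.17 CPM against 9.64 to 14.7 CPM on chow. On statin it did not overlap, at medians of 8.55 CPM against 15.4 CPM. Only 1 of these 5 genes was in the count table, so the sum does not show a difference of the set. Sums of 5 intestine markers overlapped on both diets. Of the 6 lymphocyte and 6 cholangiocyte markers 1 and 2 were in the count table. The share of counts in genes of at least 4000 exonic bases was 37.6% or more in chow females and between 35.0% and 36.7% in chow males. The part of these measures in the sex differences of the 10 genes was not tested.

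The genes most like 4 of the members across the 12 livers were found by Pearson's r of log2(CPM + 1) over all genes tested, as a description in which group differences are included. Cyp7b1 was most like Cyp4a12b (r = 0.987), Cyp2d9 (0.985) and Cyp4a12a (0.985), and most like Cyp27a1 (0.898) among the members. Cyp7a1 was most like Acadm (0.927), a mitochondrial fatty acid dehydrogenase, Gm17690 (0.925) and 4833411C07Rik (0.923), and most like Nr1h4 (0.771) among the members. Cyp8b1 was most like Atpaf2 (0.919), Adhfe1 (0.866) and Pgap2 (0.863). Nr0b2 was most like Ccnf (0.964), Osbpl8 (0.935) and Trip4 (0.932).

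Other genes of bile acid metabolism were read from fixed lists, from whose 3 smallest p-values the genes named here were taken, except Fgf15. Of 15 further enzymes tested, 0 passed the adjusted test in females on statin, and 3 had an unadjusted p under 0.05, against 10.5% of all genes, all higher (Slc27a2, Acot8 and Amacr, which act on the side chain in peroxisomes or activate it). Slc27a2 averaged 664.1 ± 153.5 CPM in chow females and 1291.8 ± 375.8 CPM in statin females without overlap (log2 fold change 0.96 ± 0.25, adjusted p = 0.164). In males 0 passed, and Cyp3a11, which hydroxylates bile acids for clearance, was the only enzyme with an unadjusted p under 0.05, against 1.96% of all genes, with 2597.5 ± 215.1 CPM on chow and 1709.3 ± 118.9 CPM on statin (-0.60 ± 0.21, adjusted p = 1.0).

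On chow, 3 of the 15 enzymes differed between the sexes, against 10.4% of all genes. Scp2, a peroxisomal thiolase and sterol carrier gene, and Slc27a2 were lower in females, with log2 fold changes of -1.25 ± 0.24 (adjusted p = 0.00545) and -1.26 ± 0.25 (adjusted p = 0.00675). Cyp39a1, an oxysterol 7-alpha-hydroxylase, was higher in females, between 73.5 and 102.2 CPM against 34.2 to 66.5 CPM in males (0.80 ± 0.23, adjusted p = 0.0483), opposite in sign to Cyp7b1, which carries out the related step in the alternative route. The chow females of these values are again those of the statin comparison.

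Of 25 further regulators tested 0 passed in either sex on statin, and 3 in females and 1 in males had an unadjusted p under 0.05, against 10.5% and 1.96% of all genes. In females Nr1i3, the receptor CAR, had 127.7 ± 24.1 CPM on chow and 295.4 ± 147.1 CPM on statin (1.21 ± 0.32, adjusted p = 0.177). The highest chow liver, at 147.2 CPM, lay just below the lowest statin liver, at 147.5 CPM, and female statin replicate 3 reached 441.7 CPM. Fgf21, a liver hormone of fasting and lipid stress, was low, at 1.35 ± 0.581 CPM in chow females and 2.99 ± 0.741 CPM in statin females without overlap (1.14 ± 0.32, adjusted p = 0.217). In males it had 1.88 ± 0.398 CPM on chow and 1.05 ± 0.128 CPM on statin (-0.83 ± 0.33, adjusted p = 1.0), and its interaction of 1.98 ± 0.46 missed the threshold (adjusted p = 0.277). Nr1h2, the LXR-beta receptor, had 40.6 ± 0.463 CPM in chow females and 32.1 ± 1.39 CPM in statin females, all below the chow livers (-0.34 ± 0.10, adjusted p = 0.218). Fgf15, the intestinal hormone that lowers Cyp7a1, was named after its values were seen and was not tested, since it had no read in any of the 12 livers. Of 8 LXR targets 0 passed, and their medians were -0.07 in females and -0.06 in males, beside Cyp7a1 at 2.45 and -0.66. The LXR target Scd1, a fatty acid desaturase, was the only one with an unadjusted p under 0.05, with 44524 ± 8312 CPM on chow and 16015 ± 11852 CPM on statin in females (-1.48 ± 0.62, adjusted p = 0.42).

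Among 13 genes of bile salt transport and FXR targets 0 passed on statin in either sex, with medians of 0.37 in females and -0.03 in males. At an unadjusted p under 0.05 stood 2 in females (Abcb4 and Slco1b2), against 10.5% of all genes, and 0 in males. Abcb4, which exports phospholipid into bile, had 135.7 ± 21.1 CPM in chow females and 209.1 ± 28.6 CPM in statin females (0.62 ± 0.23, adjusted p = 0.362). Between the sexes on chow 2 were higher in females and 2 lower, against 10.4% of all genes in either direction, the largest difference being that of Slco1a1, an organic anion uptake carrier, at 14.1 ± 9.41 CPM in females and 718.3 ± 74.4 CPM in males (-5.67 ± 0.56, adjusted p = 5.94e-05).

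Cyp7a1 has a daily rhythm and is highest in hepatocytes near the central vein, so clock and zonation genes were read beside it. Of 14 clock genes 0 passed on statin in either sex, and 1 in each had an unadjusted p under 0.05 (against 10.5% of all genes in females and 1.96% in males), Hlf in females (0.49 ± 0.14, adjusted p = 0.218) and Ciart in males (0.72 ± 0.23, adjusted p = 1.0). Of 8 pericentral genes 0 passed on statin in either sex. In females 2 of them (Cyp2e1 and Cyp1a2) had an unadjusted p under 0.05, against the same 10.5%. There Cyp2e1 had 3359.9 ± 285.5 CPM on chow and 5524.7 ± 1259.5 CPM on statin (0.72 ± 0.20, adjusted p = 0.211). Of 8 periportal genes 0 passed on statin in either sex, and 1 (Hsd17b13) had an unadjusted p under 0.05 in females, against the same 10.5%. Between the sexes on chow, where Cyp7a1 passed, 2 of 14 clock genes passed, against 10.4% of all genes. Both were lower in females, Bhlhe41 (-1.75, adjusted p = 0.018) and Hlf (-0.56, adjusted p = 0.0266). Of the pericentral genes Cyp2e1 alone passed, lower in females (-1.36, adjusted p = 0.00139). Of the periportal genes Cyp2f2 was lower (-1.24, adjusted p = 0.00796) and Sds higher (1.09, adjusted p = 0.0348). The part of any of these in the Cyp7a1 values was not tested.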

How the data were processed

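RNA from 12 livers, 3 in each of 4 groups given by the labels, was analysed. The authors deposited CPM values for all annotated genes and a table named as TMM-normalized that holds whole counts for 11968 genes, those above 1 CPM in at least 6 livers. Reads recovered from the CPM table were whole within 0.05 of a read in 100% of values, and once rounded 0 of them differed from the count table, which was used as counts. The submitters' processing notes name STAR 2.4.1a, HTSeq, edgeR 3.28.1 and GRCm38. The library kit was strand-specific, and the counting mode and strand setting are not given in the sources used here. Total counts were between 46066381 and 60419223.

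The counts were fitted with edgeR 4.0.16 in R 4.3.3 (quasi-likelihood, TMM factors 0.924 to 1.05, common dispersion 0.0380, all 12 livers and 4 groups in 1 fit). Tests are two-sided with Benjamini-Hochberg adjustment over 11968 genes, and the SE was derived from the log2 fold change and its F statistic. The members and lists were chosen with earlier results of these data known. Named were all 10 members and the 3 smallest p-values of each list and comparison, of which those that bear on the members are given, and Fgf15, which was not tested and was named after its values were seen. Alternatives used DESeq2 1.42.0, limma 3.58.1 with pseudocount 1 or 0.1, other size factors, no filter, a filter of mean 10 CPM, the 10 highest genes removed, each sex alone, the replicate number as a block, and each liver left out. The methods were tested on simulated counts (seed 7). Columns of other samples numbered 0. The livers of a group are from different mice, and p-values measure the spread between them.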

Additional observations from a re-analysis of the deposited data

Results flagged for a closer look

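The statin response of Cyp7a1 differed between the sexes by the test of the difference itself at an unadjusted p under 0.05. Its log2 fold change was 2.45 in females and -0.66 in males, a difference of 3.11 ± 0.67 (SE, edgeR's quasi-likelihood interaction, adjusted p = 0.24 over 11968 genes). All 3 statin females were above all 3 chow females, and all 3 statin males were below all 3 chow males. The adjusted test missed the threshold with edgeR and passed it with DESeq2 (0.0215). Without female statin replicate 3, whose 619.6 CPM was the highest value of the 12 livers, the difference was 2.07 (adjusted p = 0.141).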

How the results depend on the processing

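Of 465 values recomputed under alternatives that kept all livers, 427 kept their direction and their side of the threshold, 12 newly passed, 3 no longer passed and 23 changed sign. In females on statin the genes passing were 148 without the filter on low counts, 270 with DESeq2, 5 with the stricter filter, 5 with the replicate block and 0 with each sex alone, against 12, and 1 member (Cyp7a1) passed without the filter and with DESeq2. In males 4 genes passed with DESeq2 and 0 otherwise. For the interaction 103 passed without the filter and 122 with DESeq2, 1 member (Cyp7a1) in each. Between females and males 770 and 355 genes passed with the stricter filter (chow and statin), and 1946 and 1284 with DESeq2. Over single left-out livers the genes passing ran from 0 to 75 in females, 0 to 0 in males, 0 to 14 for the interaction, 635 to 1586 between the sexes on chow and 378 to 743 on statin. The members passing ran from 0 to 1, 0 to 0, 0 to 0, 1 to 6 and 2 to 3. The correlations ran from 0.09 to 0.70 for Nr0b2 with Cyp7a1, -0.22 to 0.23 for Nr0b2 with Cyp8b1 and 0.30 to 0.86 for Cyp7a1 with Cyp8b1, and the second was -0.10 with library size alone. The causes were not tested. Among 600 member values without 1 liver, 45 changed sign, 27 no longer passed and 7 newly passed.

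The sign changes with all livers were of values near 0. Cyp7b1 in females was 0.00 with pseudocount 0.1. In males Baat was 0.01 with DESeq2, its size factors, library size alone or each sex alone, and 0.00 with the stricter filter or the 10 highest genes removed, and Cyp7b1 was -0.08 with limma and -0.04 with the block. In the interaction Cyp27a1 was 0.00 with DESeq2 and with its size factors and -0.03 with library size alone, Nr5a2 was -0.04 with library size alone, and Cyp7b1 was 0.08 with limma and 0.03 with the block. Between the sexes on statin Cyp8b1 was -0.06 with library size alone, 0.00 without the filter, -0.03 with limma and -0.02 with the block, and Hsd3b7 was -0.05 with pseudocount 0.1. Without single livers the members that changed sign ran as follows. In females Cyp27a1 ran from -0.10 to 0.28, Cyp7b1 from -0.15 to 0.12, Baat from -0.01 to 0.58 and Nr5a2 from -0.21 to 0.01. In males Cyp27a1 ran from -0.14 to 0.14, Cyp7b1 from -0.45 to 0.27, Akr1d1 from -0.22 to 0.06, Baat from -0.06 to 0.09 and Nr5a2 from -0.39 to 0.03. In the interaction Cyp27a1 ran from -0.15 to 0.23, Cyp7b1 from -0.29 to 0.44, Baat from -0.01 to 0.58 and Nr5a2 from -0.13 to 0.29. Between the sexes on statin Cyp8b1 ran from -0.16 to 0.26, Hsd3b7 from -0.18 to 0.59 and Nr5a2 from -0.21 to 0.21.

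The replicate numbers name different mice, and the labels give no pairing by number. Deviations from the group means of same-numbered livers had a mean correlation of -0.108 (-0.746 to 0.676), against 0.058 (-0.681 to 0.754) for other pairs. Same-numbered chow and statin livers averaged -0.295 in females and -0.344 in males. Correlations spread this widely, with 3 livers a group, cannot exclude a factor shared by number. With the replicate number as a block Cyp7a1 in females was 2.18 (adjusted p = 0.155) and 2.84 in the interaction (0.36), and the members passing were 3 on chow and 3 on statin between the sexes. With 3 livers a group, 1 liver carried much of the Cyp7a1 spread. A group left with 2 livers takes its spread from all groups.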
